A study of Mus musculus with 9 samples.

Results

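The 4 arrays titled Control 1 to Control 4 hold RNA from lungs of mice that received no radiation. They are 4 of the 9 arrays of the series, chosen by their titles alone, and the 5 arrays labelled irradiated were not used here. The mice were C57BL/6 males aged 10 weeks, with no transgene or deletion named in the labels. Anaesthesia with zoletil and rompun is described for the irradiation, and whether the control mice received it is not given in the sources used here. Each array was hybridised with 1 RNA, amplified and labelled with a single dye. The labels call this RNA pooled, and the study's methods describe pools of 3 experiments for each time point. How many mice each control array represents is not given, and the spread between arrays is a spread between such RNAs, with labelling and hybridisation included. The time of day at which the lungs were taken, and which part of the lung each control holds, were also not given.

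The lung is built around alveoli, whose thin type I cells carry gas exchange and whose type II cells secrete surfactant, the lipid and protein film that keeps alveoli open. Conducting airways are lined by secretory (club) cells, ciliated cells and, in the larger tubes, basal cells. A dense capillary bed, fibroblasts that lay down elastic matrix, smooth muscle and a large resident immune population make up the rest. In mice, heart-type muscle continues from the left atrium along the pulmonary veins into the lung. Tissue dissected from the chest can also carry neighbouring fat, oesophagus, body-wall muscle or lymphoid tissue.

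The labelled sex and tissue were looked up in the arrays first. Xist, the RNA that coats the inactive X chromosome of females, was not well above background on any array. Ddx3y, a helicase gene of the Y chromosome, was measured at log2 intensities of 11.91, 12.02, 11.80 and 11.72 in controls 1 to 4. Both readings match male mice. Sftpc, which encodes the surfactant protein made only by type II cells, was the brightest of all 20832 named genes, at 19.53, 19.44, 19.44 and 19.53. This defining marker of lung epithelium was thus at the top of the range on all 4 arrays.

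The arrays carried 39429 probes for genes, of which 27451 could be given 1 gene symbol. A gene is represented by its brightest probe, and its level is the log2 of the background-corrected intensity after quantile normalization over the 4 arrays. The scale of mean levels ran from 2.42 at the 5% quantile of genes through a median of 9.58 to 14.54 at the 95% quantile. Between 72.8% and 87.3% of spots were well above background on an array, with the highest share on control 3. On all 4 arrays 16017 genes (76.9%) were well above background, and 2093 genes (10.0%) were so on none. Pearson's correlation across genes, which are not independent replicates, was 0.980 to 0.982 for the 3 pairs of arrays that include control 3 and 0.986 to 0.988 for the other 3 pairs. Control 3 was also the array with high skeletal muscle and squamous epithelium genes, described further on, and the part of these in its lower correlation was not tested. Control 2 had the largest median absolute log2 difference from the other arrays, 0.26, against 0.20 to 0.23 for the rest. Over the 4 arrays this distance was 0.23 ± 0.03 (mean ± SD, n = 4).

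The brightest genes were of mixed kinds, with lung epithelial products, a globin and cytoskeletal genes among others. Behind Sftpc came Hba-a2, an alpha-globin gene of red blood cells, at 19.28, 19.15, 19.33 and 19.36. Scgb1a1, the secretoglobin that defines club cells, ranked 3 at 19.27, 19.28, 19.26 and 19.22. Sftpc was the brightest on every array, with SDs of 0.05, 0.09 and 0.03 log2 (n = 4) for these 3 genes. Hba-a2 and Scgb1a1 lay within their spread of each other, and their order differed between arrays. Actb, cytoplasmic actin, ranked 5 with 18.97 ± 0.13 (mean ± SD, n = 4), and Cbr2, a carbonyl reductase abundant in club cells, ranked 6 with 18.96 ± 0.07. Exosc2, a subunit of the RNA exosome, ranked 4 with 19.12 ± 0.12. Ranks 7 to 18 were Elk1, Slc10a1, Kctd14, Rn4.5s, Medag, Ttc38, 2610028H24Rik, Ndor1, Med16, Synrg, Hccs and Milr1, the last an inhibitory receptor of mast cells. Further down were Tpt1, a translationally controlled protein, at rank 19 and Actg1 at rank 20. Means of the 20 brightest genes ran from 18.48 to 19.49, and their largest SD was 0.19.

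Intensity is not a count of molecules, since probes differ in the signal they give per transcript, so the order of genes is an order of brightness. The top of the list shows this limit directly. Of the 20 brightest genes, 13 had more than 1 probe, and in 9 of these the next probe was at least 4-fold dimmer. Slc10a1, the bile acid uptake carrier of liver cells, ranked 8 at 18.97, 18.97, 18.76 and 19.01, while its other probe had a mean of 2.91. Elk1, a transcription factor, ranked 7 with 18.93 on one probe and 5.97 on another. For Cbr2 the next probe was still bright at 17.04, and for Actg1 it was 17.64. Which probe measures these genes' transcripts cannot be told from the arrays. Across all 5490 genes with several probes, the median gap between the brightest and the next was 1.87 log2, and 48.0% had a gap of at least 4-fold. With the mean of all probes in place of the brightest, 8 of the 20 kept their place among the top 20.

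**Figure D1:**
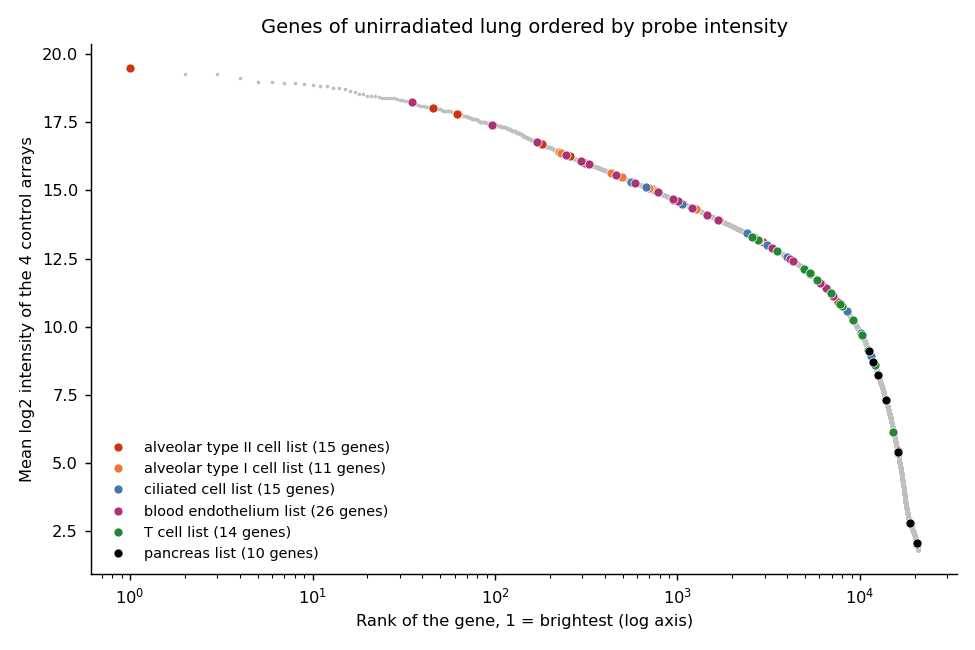
Mean log2 intensity of each gene over the 4 control arrays (vertical axis) against its rank on a log axis, with rank 1 the brightest. Coloured points mark the members of the alveolar type II, alveolar type I, ciliated, blood endothelium, T cell and pancreas lists. Members of the alveolar type II list lie near the top left, led by Sftpc at 19.49. The pancreas list, with a mean of 5.64, lies toward the dim end.

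Type II cell markers lay high and steady. All 15 members of the list were well above background on every array, and their median stood at the 98.4 ± 0.2 percentile of all genes (mean ± SD, n = 4). The list's mean was 15.74, 15.50, 15.55 and 15.70 in controls 1 to 4, a range of 0.24 log2. Sftpb, the surfactant protein that spreads the lipid film, ranked 46 at 17.68, 18.24, 18.17 and 17.94, lowest in control 1, while its other probe, at 15.50, 14.25, 14.64 and 15.23, was lowest in control 2. The collectins Sftpd and Sftpa1, surfactant proteins that bind microbes, ranked 62 and 63 with 17.82 ± 0.28 and 17.80 ± 0.32. Lyz1, a lysozyme, ranked 97 and was brightest in control 3 at 18.02, against 17.02 to 17.41 elsewhere. Abca3, the pump that loads phospholipid into lamellar bodies, ranked 319 with 15.98 ± 0.20. Napsa, the protease that processes surfactant protein precursors, was the 1 member with a range of at least 2-fold, at 14.96, 13.68, 14.55 and 14.78. Over all genes that range was reached by 4547 of 20832, or 21.8%, a share that depends on the processing (6.45% with normexp, 28.4% with scaling to the 75th percentile). In whole tissue a larger number of cells of a type and more RNA per cell cannot be told apart, here and in every list that follows.

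Markers of type I cells were nearly as bright, with 11 of 12 found and a median at the 97.4 ± 0.4 percentile. Emp2, a membrane protein of type I cells, ranked 225 (16.41 ± 0.26) and Hopx, a homeodomain cofactor, ranked 300 (16.05 ± 0.13). Aqp5, the apical water channel, ranked 475 (15.53 ± 0.16). Ager, the receptor for advanced glycation end products, was measured at 15.41, 14.30, 14.75 and 15.30, lowest in control 2, and was the 1 member of the list past 2-fold. Napsa and Ager thus both had their lowest value in control 2, although the type I list's means lay within 0.32 log2 of each other.

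Secretory cell genes held the highest median of the airway lists, the 99.1 percentile, yet some varied more than alveolar ones. Of the 11 found, 5 had a range of at least 2-fold (21.8% of all genes) and 2 of at least 4-fold (5.46% of all genes). Cyp2f2, the cytochrome P450 that marks club cells, ranked 29 and was steady at 18.36 ± 0.06, as Scgb1a1 was. Bpifa1, a secreted antimicrobial protein of large airways and nose, was measured at 17.51, 15.42, 16.65 and 17.79, with control 2 lower than the mean of the others by 1.90 log2. Ltf, lactoferrin of airway glands and neutrophils, had the same order, at 14.72, 13.39, 14.12 and 15.41. Reg3g, a bactericidal lectin, was instead lowest in control 3, at 14.24 against 15.24 to 15.74. Bpifa1 and Ltf belong to the surface of large airways and their glands, whereas Cyp2f2 and Scgb1a1 are made in club cells of all airways. Their different spread is given as measured, and the share of large airway in each pool is not given in the sources used here.

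Ciliated cell genes shared an order of arrays. None of the 15 found had a 2-fold range, but 14 of them were higher in both controls 2 and 4 than in both controls 1 and 3, an order that 17.1% of all genes had. The list's means were 12.25, 12.90, 12.37 and 12.70. In 13 members control 2 was the highest array, beside 30.4% of all genes. Ccdc153, a protein of motile cilia, was measured at 14.97, 15.70, 15.04 and 15.52, and Dynlrb2, a dynein light chain, at 14.72, 15.54, 14.95 and 15.23. Foxj1, the transcription factor of motile ciliogenesis, was the exception, at 12.92, 13.82, 13.59 and 13.37. The average of controls 2 and 4 exceeded that of controls 1 and 3 by 0.49 log2 for the list, and by 0.39 to 0.60 under the other processing settings and with single arrays left out, the ranges given in brackets for later lists being of the same kind.

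Most blood vessel genes varied little. All 26 blood endothelial markers were well above background on every array, with a median at the 93.6 ± 0.6 percentile. Of these, 2 were past 2-fold, as 21.8% of all genes were. Epas1, the oxygen-sensitive transcription factor of lung endothelium, ranked 35 at 18.20, 18.26, 18.27 and 18.23. Egfl7, a secreted endothelial protein, ranked 96 with 17.41 ± 0.06. Ramp2, the partner of the adrenomedullin receptor, ranked 170 with 16.77 ± 0.29. Car4, carbonic anhydrase of a subset of lung capillary cells, was 1 of the 2 that varied, at 14.85, 15.61, 14.96 and 14.34. Its other probe was highest in control 1 and lowest in control 2, so the order of arrays for Car4 differed between probes. Lymphatic markers were far dimmer, with a median at the 36.1 ± 4.4 percentile for the 5 found. Of these 5, 3 had a 2-fold range (21.8% of all genes).

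Among stromal lists, fibroblast and matrix genes had a median at the 87.8 ± 1.6 percentile, with 5 of 19 past 2-fold. Smooth muscle and pericyte genes had one at 81.2 ± 2.7, with 1 of 15. Over all genes the share past 2-fold was 21.8%, near that of the fibroblast list (26.3%). Gsn (gelsolin, an actin-severing protein) ranked 52 and Inmt, an indole methyltransferase abundant in lung, ranked 53, both with means of 17.92 to 17.93. Eln, the elastin gene, varied most in the list, at 10.16, 9.63, 7.96 and 9.98. Col1a1, the main fibrillar collagen chain, was likewise lowest in control 3 at 13.30, beside 14.38, 14.17 and 13.75. Tagln and Acta2, contractile proteins of smooth muscle, ranked 509 and 701 with 15.44 ± 0.30 and 15.06 ± 0.21.

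Immune cells were represented at every level of the scale. Siglech, a lectin of plasmacytoid dendritic cells, ranked 88 (17.51 ± 0.28), but its other probe had a mean of 9.24. Csf3r, the receptor for granulocyte colony-stimulating factor, ranked 110 (17.34 ± 0.19). Csf1r, the macrophage growth factor receptor, ranked 553 (15.32 ± 0.14), and Cd79b, part of the B cell receptor, ranked 1080 (14.49 ± 0.30). Gzma, a protease of cytotoxic lymphocytes, ranked 1662, and Cd2, a T cell adhesion receptor, ranked 2559. Natural killer cell genes had no member past 2-fold among 9, T cell genes 2 of 14 and platelet genes 0 of 8. Over all genes the share was 21.8%. B and plasma cell genes had 4 of 11 past 2-fold. Jchain among these, the chain that joins secreted antibodies, was lowest in control 3, at 15.35, 15.86, 13.18 and 14.98.

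Alveolar macrophage genes were highest in control 1, with a list mean of 13.63 against 12.92 to 13.07 in the others. In 9 of the 12 members control 1 was the highest array, as it was for 22.5% of all genes, and 7 had both controls 1 and 2 above both controls 3 and 4, beside 18.8% of all genes. Chil3, a chitinase-like lectin secreted by alveolar macrophages, ranked 137 at 18.09, 17.51, 16.41 and 16.34. Ear2, a ribonuclease of eosinophils and macrophages, was measured at 15.65, 14.24, 15.25 and 15.05, lowest in control 2.

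Genes of antigen presentation were bright, and steady in the sense that none of 11 passed 2-fold, with a median at the 99.1 ± 0.1 percentile. Their mean was 15.03 in control 1 and 14.70, 14.65 and 14.66 in the others. Of the 11, 9 were highest in control 1, as 22.5% of all genes were. H2-Ab1 and H2-Eb1, class II chains of antigen-presenting cells, ranked 91 and 147. H2-K1, a class I heavy chain, ranked 95 at 17.56, 17.56, 17.32 and 17.26.

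Interferon-induced genes had 11 of 16 members with controls 1 and 2 both above controls 3 and 4, the order that 18.8% of all genes showed. List means were 11.81, 11.62, 10.92 and 11.16. Cxcl9, a chemokine that draws T cells and is induced by interferon gamma, was measured at 11.58, 11.20, 6.49 and 9.11. Cxcl10, its relative at the same receptor, was measured at 12.33, 12.20, 9.34 and 9.92. A further Cxcl9 probe gave 10.37, 10.05, 6.46 and 8.09, the same order of arrays. Ubd, a ubiquitin-like protein induced by interferon gamma and not on the list, was also lowest in control 3, at 9.39, 9.44, 5.64 and 8.99.

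Transcription factors that pattern the lung spread over a wide band of intensity but differed little between arrays. None of the 19 had a 2-fold range, and the list's means lay within 0.13 log2. Foxf1, a factor of lung mesenchyme and endothelium, ranked 506 at 15.44 ± 0.26, and Foxa2, a factor of airway and alveolar epithelium, ranked 2362 at 13.45 ± 0.16. Nkx2-1, the master regulator of lung epithelium, ranked 3364 at 12.45, 13.17, 12.88 and 12.96. Foxp2 ranked 14829 and Sox9, a factor of the embryonic airway tips, ranked 15870, both still well above background on every array. Housekeeping genes gave the same picture, with none of 15 past 2-fold, and Gapdh, a glycolytic enzyme, at 17.27 ± 0.10. Ribosomal protein genes (81 found) stood at the 99.3 percentile and oxidative phosphorylation genes (78 found) at the 96.3 percentile.

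Lists of distant organs had low medians, with single bright members. Medians of the pancreas, germ cell, kidney, liver and brain lists stood at the 23.1, 21.5, 24.8, 29.2 and 28.0 percentile. Thyroid and thymus, tissues that lie nearer to the lung, had medians at 19.6 and 18.6. Apoa2, an apolipoprotein of the liver list, ranked 3155 at 12.93, 13.24, 13.56 and 12.15, and Cyp2e1, a cytochrome P450 of liver that lung also makes, ranked 3338. Alb, serum albumin, was well above background on 2 arrays, with 5.11, 4.28, 5.45 and 6.96. Rag2, the recombinase partner of developing lymphocytes, was well above background on none, whereas 3 of the 8 thymus genes were so on all 4. Of 1057 olfactory receptor genes found, 538 were well above background on no array and 148 on all 4, and their median was at the 10.0 percentile. The brightest members of the brain list were Snap25, a synaptic vesicle fusion protein, which ranked 613 at 15.32, 15.60, 14.92 and 15.04, and Stmn2, a microtubule regulator of neurons, which ranked 4569.

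**Figure D2:**
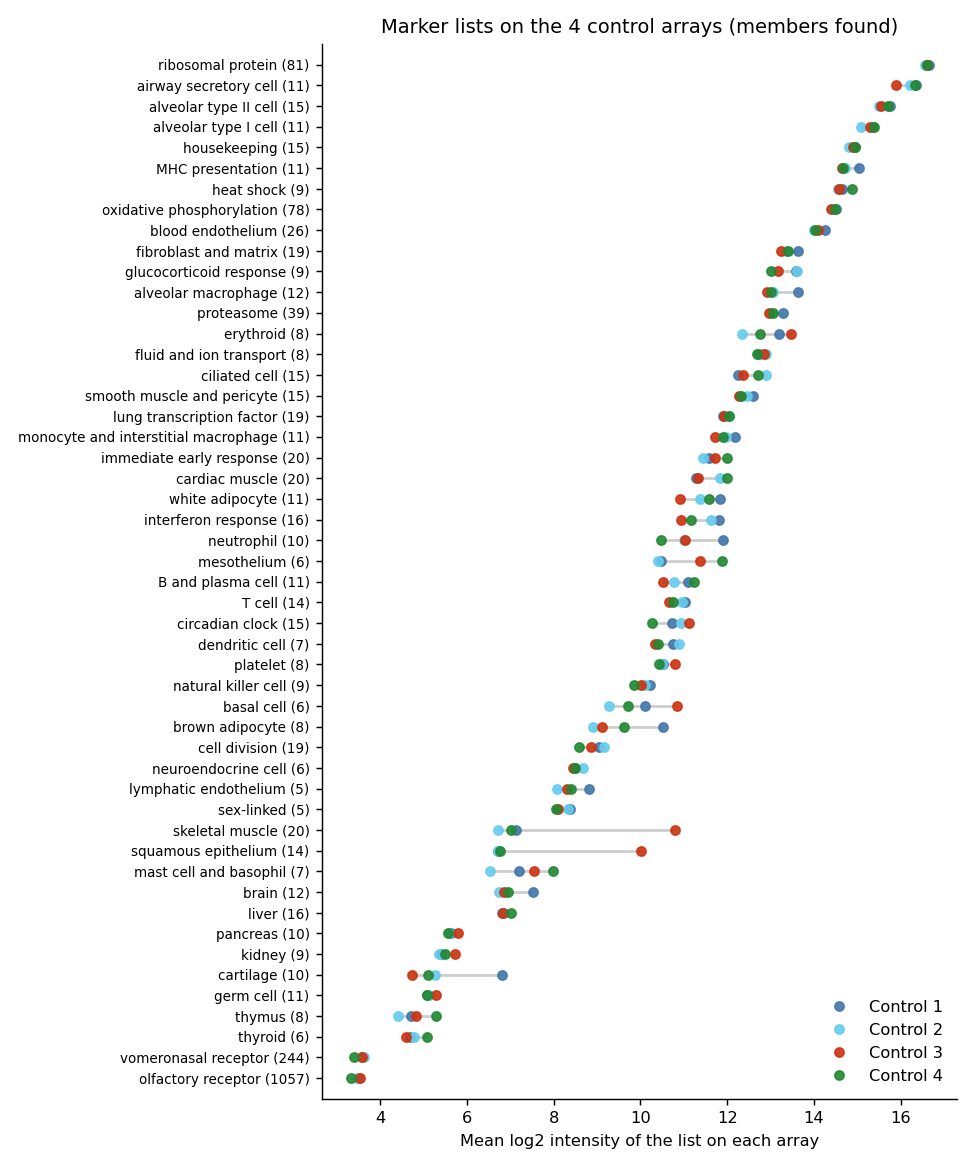
Mean log2 intensity of each marker list (horizontal axis) on each control array, 1 colour per array, with the number of genes found beside each list name. Points of the 4 arrays nearly coincide for most lists. The control 3 points of the skeletal muscle and squamous epithelium lists lie far to the right of the others, at 10.80 and 10.01, and the control 1 point of the cartilage list at 6.81.

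The spread between controls depended on brightness. With the genes split by mean level into 10 classes of equal size, 4.51% of the brightest class had a range of at least 2-fold over the 4 arrays. The share was 10.2% in class 5 and 73.0% in class 9. In class 10, the dimmest, where most values sit near the lower end of the scale, it was 34.5%. The median SD was 0.16 log2 for the 2000 brightest genes and 0.26 for all genes. Among those well above background on all 4 arrays, 12.2% passed 2-fold and 1.52% passed 4-fold. Of the 2000 brightest, 93 genes (4.65%) passed 2-fold. Without control 3 the counts over all genes were 2811 past 2-fold and 570 past 4-fold, in place of 4547 and 1137, and no other single array left out gave fewer.

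**Figure D3:**
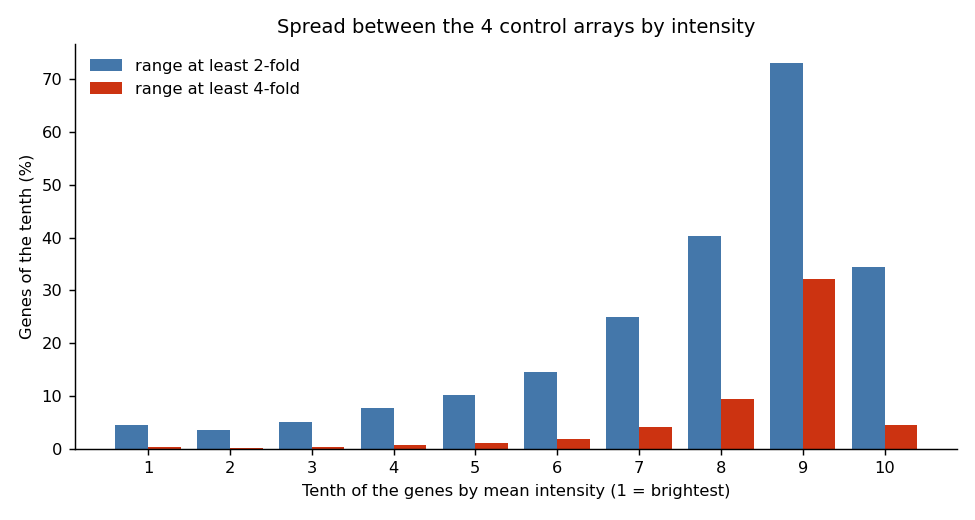
Percent of genes whose highest control array was at least 2-fold or at least 4-fold above the lowest (vertical axis), for 10 equal classes of genes ordered from brightest to dimmest. The share past 2-fold is 4.51% in class 1 and 73.0% in class 9.

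Repeated spots and repeated probes were compared next. For 325 probes printed on 10 spots and well above background on all 4 arrays, the SD between spots of 1 array had a median of 0.056 log2, and the SD between arrays one of 0.23. In 319 of the 325 the spread between arrays was the larger. The latter also holds the differences between pools, labelling and hybridisation. Of 4223 genes with 2 probes well above background on all 4 arrays, 1595 (37.8%) had the same array highest in both probes. Where the brightest probe's range was at least 4-fold, this held for 13 of 22 genes (59.1%). A gene's order of arrays is therefore less certain where it rests on 1 probe with a small range.

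Skeletal muscle genes set control 3 apart. Their list mean was 7.14, 6.72, 10.80 and 7.02 in controls 1 to 4, so control 3 was 3.85 log2 above the mean of the others (2.20 to 3.96). Of 20 members, 18 had a 2-fold range (21.8% of all genes). In control 3, 17 were at least 2-fold above each other array, as 1.89% of all genes (393) were. All 20 were well above background in control 3 and 13 to 17 in the others, beside 18562 and 16134 to 17191 of all 20832 genes. Over the 13 members well above background on all 4 arrays the difference was 3.15 log2. Myh1, a fast myosin heavy chain of skeletal muscle, was measured at 2.78, 2.64, 13.55 and 2.38, and was well above background in control 3 alone. Since the other 3 values lie below background, the difference is given as at least 9.0 log2. Such a bound is taken from the mean, over the other arrays, of the dimmest signal well above background or the gene's own value where that is higher, so it holds for their mean and not for each array. Myh4, the fastest myosin isoform, was measured at 2.41, 1.99, 12.30 and 2.09, at least 7.75 log2 higher in control 3.

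Other contractile genes were above background everywhere and still highest in control 3. Acta1, skeletal alpha-actin, was measured at 10.40, 9.89, 14.62 and 10.13. Tnni2, the inhibitory troponin of fast fibres, was measured at 11.43, 11.13, 15.46 and 10.47, and Tnnt3, their tropomyosin-binding troponin, at 9.47, 8.59, 14.24 and 9.43. Ckm, muscle creatine kinase, was 8.76, 8.77, 11.98 and 9.29. Members of both the filament and the energy supply of muscle fibres were thus highest on the same array. Pygm, muscle glycogen phosphorylase, differed less, at 10.93, 11.05, 11.84 and 11.33.

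Stratified squamous epithelium was the other tissue signature of control 3. The list of 14 squamous markers had means of 6.71, 6.72, 10.01 and 6.77, a difference of 3.28 log2 (1.88 to 3.64). Over the 8 members well above background on all 4 arrays the difference was 2.21. At least 2-fold above each other array in control 3 were 8 of the 14 (1.89% of all genes). Cornified envelope genes, which encode the cross-linked protein shell of surface keratinocytes and were added as a list after the values were seen, had means of 4.86, 5.05, 9.49 and 4.63. Of 50 found, 35 were at least 2-fold above each other array in control 3 (1.89% of all genes). In control 3, 45 were well above background, against 16 to 20 elsewhere. Of all 20832 genes, 18562 were so in control 3 and 16134 to 17191 elsewhere. The squamous and cornified envelope lists share 7 genes, so they are not separate evidence. Lor, loricrin of the cornified envelope, was measured at 7.42, 8.17, 15.89 and 8.12. Krt4, the keratin of oesophageal and oral lining, was measured at 4.57, 2.53, 12.46 and 3.49, at least 7.91 log2 higher in control 3. Krtdap, a keratinocyte differentiation protein, was 4.09, 5.74, 13.67 and 2.94, and Sprr3, a small proline-rich envelope protein of the oesophagus, 2.38, 2.14, 11.25 and 2.08.

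Keratinocyte genes differed in their order of arrays. Krt1, a keratin of the epidermis above the basal layer, was 5.80, 6.14, 4.71 and 5.82, lowest in control 3. Its partner Krt10 was 9.62, 9.40, 9.76 and 9.81 on the brighter probe, but 7.79, 8.54, 10.50 and 7.42 on the other, which was highest in control 3. Ivl, involucrin, was 4.61, 3.97, 4.36 and 4.76. Krt13, which pairs with Krt4 in moist linings, was 8.96, 8.14, 11.76 and 8.71, and 5.45, 4.58, 14.16 and 4.85 on its other probe. Krt5, the basal keratin and a member of the basal cell list, was 9.88, 8.45, 12.54 and 8.92. A second Krt5 probe had its highest value in control 3 too, at 6.72 beside 2.68 to 4.47. Krt4, Krt13 and Krt5 were therefore highest in control 3 on every probe, Krt1 was not, and for Krt10 the probes differed. Krt6a, a keratin of activated and oral epithelium, was highest in control 4, at 3.96, 5.42, 4.36 and 6.37. Of the 6 genes of the basal cell list, Krt5 among them, 3 were highest in control 3 (23.6% of all genes). Trp63, the brightest of the 6, was lowest there on its brighter probe, at 13.70, 13.39, 12.98 and 13.53. Its other probe was highest in control 3.

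The 20 genes with the largest range over the controls were all highest in control 3, with ranges from 8.96 to 11.19 log2. Among them 14 were on the cornified envelope list, and Myh1 and Myh4 on the muscle list. The late envelope gene Lce3a led at 2.92, 3.14, 14.10 and 3.02, at least 9.55 log2 higher in control 3. In 18 of the 20, no other array was well above background, and the differences measured against background were at least 6.59 to at least 9.55 log2. Of the 393 genes at least 2-fold above each other array in control 3, 56 were on the muscle, squamous or cornified lists, which together hold 77 genes. Control 3 also had the largest share of spots well above background, 87.3%, and its part in these differences was not tested.

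**Figure D4:**
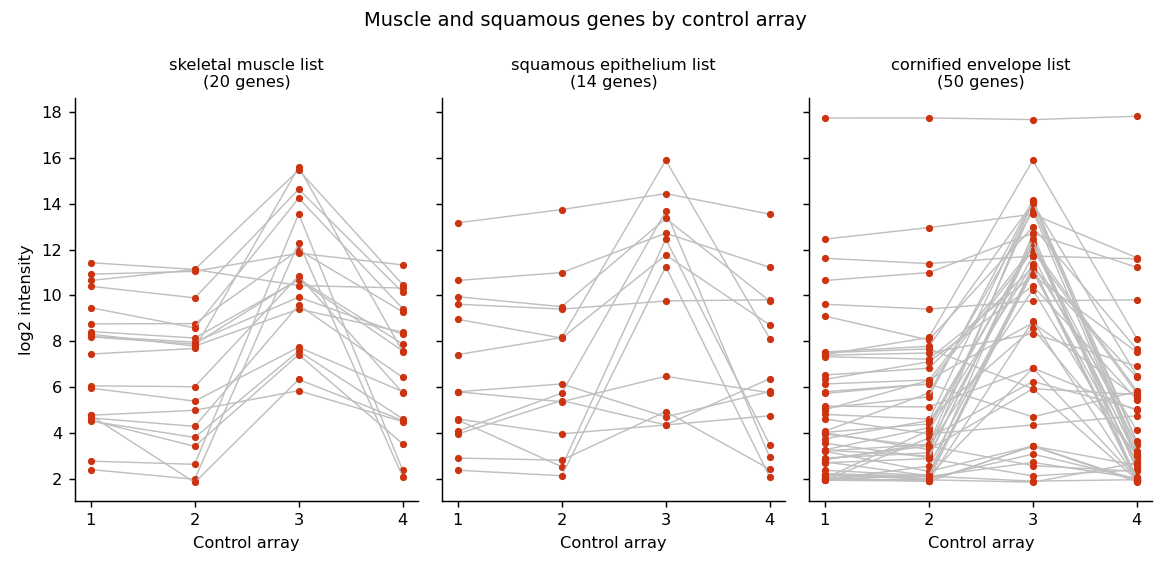
Log2 intensity (vertical axis) of each member of the skeletal muscle, squamous epithelium and cornified envelope lists on the 4 control arrays, 1 line per gene. Most lines have their highest point at control 3, with list means of 10.80, 10.01 and 9.49 in control 3.

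Promoters of these genes are shown because part of them carry the same core element at the same place. Each line gives 120 bases of the mouse genome (RefSeq, build GRCm38.p6), 5′ to 3′ on the strand of the gene, with TATAAA, the letters of a TATA box, in capitals. Only that strand was searched, for matches that begin 36 to 22 bases before the transcription start. Lor lies at chr3:92083143-92083262 on the minus strand, Lce1d at chr3:92687211-92687330 on the minus strand, Krtdap at chr7:30787785-30787904 on the plus strand, Sprr3 at chr3:92458721-92458840 on the minus strand, Myh1 at chr11:67199982-67200101 on the plus strand and Myh4 at chr11:67237692-67237811 on the plus strand.
Lor: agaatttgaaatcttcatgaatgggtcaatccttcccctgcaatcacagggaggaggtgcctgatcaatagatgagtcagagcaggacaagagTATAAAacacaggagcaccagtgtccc
Lce1d: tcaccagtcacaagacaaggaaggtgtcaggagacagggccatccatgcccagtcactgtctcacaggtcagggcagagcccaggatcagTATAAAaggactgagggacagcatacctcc
Krtdap: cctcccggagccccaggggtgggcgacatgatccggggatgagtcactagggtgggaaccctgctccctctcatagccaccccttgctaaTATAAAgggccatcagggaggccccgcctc
Sprr3: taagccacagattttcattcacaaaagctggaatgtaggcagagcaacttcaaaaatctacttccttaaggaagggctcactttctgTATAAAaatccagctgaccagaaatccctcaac
Myh1: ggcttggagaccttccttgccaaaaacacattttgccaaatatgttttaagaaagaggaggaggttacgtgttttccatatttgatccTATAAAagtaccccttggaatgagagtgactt
Myh4: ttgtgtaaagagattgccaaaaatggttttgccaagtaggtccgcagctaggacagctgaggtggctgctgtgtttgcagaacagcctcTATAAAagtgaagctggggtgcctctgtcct

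In these 6 promoters the match begins 27 to 33 bases before the start. It was present in 16 of the 44 cornified envelope genes with a promoter in the table (36.4%) in 5 of 9 squamous markers (55.6%), a list that shares 7 genes with the former, and in 3 of 15 skeletal muscle genes. Among all 16505 array genes with a promoter the share was 2.84%, and among all 32851 promoters, some genes having several, 1.85%. Many Lce genes are near copies of each other in 1 cluster on chromosome 3, so their promoters are not independent, and their probes may share signal.

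The share with this element is also given by the spread of genes in general, as a description. TATAAA was found in the window of 10.7% of genes well above background on all 4 arrays with a 4-fold range (19 of 178), and of 1.91% of the 200 genes with the smallest SD among the 2000 brightest (3 of 157 with a promoter). The median number of CG dinucleotides in the 300 bases from 250 before to 50 after the start was 5.5 in the former, 21 in the latter and 15 over all genes. Lists with few members past 2-fold differed in their share of TATAAA. It was present in 3 of 11 type II genes (27.3%) and 4 of 8 pancreas genes (50.0%) with a promoter. In ribosomal protein genes it was 0 of 60, and in oxidative phosphorylation genes 0 of 64. The element was thus not particular to genes that varied. Ctbp1, a transcriptional corepressor, had the smallest SD of the 2000 brightest genes, 0.0053 log2, at 15.44, 15.43, 15.43 and 15.43. Its promoter at chr5:33275005-33275124 on the minus strand holds no match and is shown as the contrasting, CG-rich kind, beside that of Retnla at chr16:48842489-48842608 on the plus strand, a gene that varied between controls and is described below.
Ctbp1: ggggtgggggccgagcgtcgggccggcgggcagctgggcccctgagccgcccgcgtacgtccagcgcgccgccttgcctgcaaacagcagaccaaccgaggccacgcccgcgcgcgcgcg
Retnla: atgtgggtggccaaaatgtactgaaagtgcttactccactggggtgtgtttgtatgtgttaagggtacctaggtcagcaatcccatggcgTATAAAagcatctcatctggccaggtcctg

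Further genes with small SDs were of mixed kinds. Uqcrq, a subunit of respiratory complex III, was measured at 15.66, 15.65, 15.66 and 15.66, and Hccs, which attaches haem to cytochrome c, at 18.61, 18.62, 18.62 and 18.62. Flii, an actin-binding protein, Agrn, a basement membrane proteoglycan, and Polr2m, an RNA polymerase II factor, were also among the 10 smallest SDs, which ran from 0.0053 to 0.024. So were Milr1, the small RNA Rn4.5s, the pseudogene Selenok-ps1 and Tprgl. Quantile normalization ties the very brightest ranks together, which limits how far a spread at the top of the scale can be read.

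At the other end, 10 of the 2000 brightest genes had ranges from 1.97 to 3.74 log2. They were Dbp, Hbb-bs, Retnla, Jchain, Zdhhc22, Myh8, Bpifa1, Hbb-b2, Ltf and Fabp4. Their roles are varied, since they hold a clock output, 2 beta-globins, a myosin, airway proteins and the fatty acid carrier of adipocytes and capillaries. Different arrays set the range in each, with control 4 the lowest for Dbp, control 2 for the globins and for Bpifa1 and Ltf, and control 3 for Jchain and Fabp4. Zdhhc22, a palmitoyl transferase, was measured at 14.12, 12.46, 15.14 and 13.12.

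Control 1 was the highest array for part of the fat, cartilage and neutrophil genes. It also had the highest mean in 21 of the 50 lists fixed at the start. At least 2-fold above each other array in control 1 were 160 genes, or 0.768% of all. This held for 2 of 8 brown adipocyte, 0 of 11 white adipocyte and 2 of 10 neutrophil genes. Ucp1, the uncoupling protein by which brown fat makes heat, was measured at 13.13, 4.70, 9.53 and 9.88, and was not well above background in control 2. Control 1 stood at least 5.10 log2 above the mean of the others, and 3.41 log2 above that of controls 3 and 4 when the arrays were normalized without control 2. Cidea, a lipid droplet protein of brown fat, was 12.93, 11.09, 11.54 and 11.76, and the list of 8 brown adipocyte genes had means of 10.52, 8.90, 9.10 and 9.61. Control 1 stood 1.32 log2 above the others for this list, and 0.70 over the 6 members well above background on all 4 arrays, which leave out Ucp1. Cox7a1, a muscle and brown fat subunit of cytochrome oxidase, was highest in control 2, at 13.20, 13.41, 12.38 and 13.36. White adipocyte genes, 11 found, were highest in control 1 for 8 members (22.5% of all genes). For 8 members control 3 was the lowest (29.4% of all genes), and the means were 11.83, 11.38, 10.90 and 11.58. Adipoq, the adipocyte hormone adiponectin, was 12.86, 12.04, 11.45 and 12.15, and Cfd, complement factor D of adipocytes, 16.41, 16.11, 14.77 and 15.72. Cidea and Adipoq were well above background on all 4 arrays, and Ucp1 on 3.

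Cartilage genes were dim, and part of them was highest in control 1. Of the 10 members, 5 were well above background on all 4 arrays and 3 on none. At least 2-fold above each other array in control 1 were 6, but Matn1 and Cnmd among these were not well above background there. The list means were 6.81, 5.26, 4.74 and 5.09, a difference of 1.78 log2 that lay between 0.74 and 1.92 under the other settings, lowest with normexp. Matn4, a matrix protein of cartilage and other tissues and the brightest member, was highest in control 2, at 11.29, 12.38, 11.79 and 11.15. Col2a1, the main collagen of cartilage, was measured at 8.69, 3.38, 2.56 and 4.68, and was well above background on 2 arrays. Comp, a cartilage matrix glycoprotein, was 9.36, 6.21, 5.81 and 7.01. From the bone and growth plate list, added after the values were known, Col10a1, the collagen of hypertrophic growth plate cartilage, was 9.59, 3.39, 2.59 and 1.86, at least 5.86 log2 higher in control 1, and Ucma, a secreted protein of cartilage cells, 9.14, 2.45, 2.08 and 3.98, at least 5.41 higher. Col10a1 is not a gene of airway cartilage rings in general, but of cartilage that is turning to bone. On the same list Alpl and Phex, genes of mineralising cells, differed little, at 8.80, 9.03, 8.36 and 8.77, and at 7.97, 8.25, 7.62 and 7.35.

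Neutrophil genes were highest in control 1 for 8 of 10 members (22.5% of all genes), and 8 had a 2-fold range (21.8% of all genes). The list mean was 11.91 in control 1 and 10.47 to 11.02 in the others. S100a9 and S100a8, the calcium-binding pair that fills the neutrophil cytoplasm, were measured at 17.53, 16.40, 16.52 and 15.99, and at 15.93, 14.23, 14.99 and 14.12. Cxcr2, a chemokine receptor of neutrophils, was 10.54, 9.43, 8.98 and 8.49, and Il1r2, the decoy interleukin 1 receptor, 9.49, 7.92, 8.54 and 7.44. Csf3r, also on that list, did not follow, at 17.44, 17.16, 17.20 and 17.55. Control 1 exceeded the mean of the others by 1.08 log2 for the list, and by 0.90 to 1.21 under the other settings and with single arrays left out.

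Control 2 was the lowest in red cell genes. The erythroid list had means of 13.19, 12.33, 13.47 and 12.75, with 6 of 8 members past 2-fold (21.8% of all genes). At least 2-fold below each other array in control 2 were 118 genes, or 0.566% of all. Hbb-bs, a beta-globin gene, was measured at 15.66, 13.20, 16.41 and 15.44, with control 2 lower than the mean of the others by 2.64 log2. Hba-a1, an alpha-globin gene, was 18.82, 17.29, 18.68 and 18.72, and Alas2, the first enzyme of haem synthesis in red cell precursors, 14.16, 13.29, 14.36 and 13.86. Globin genes are near copies of each other, so their probes may share signal. Of the 8 members 6 were lowest in control 2, as 25.9% of all genes were, and 2 were at least 2-fold below each other array there.

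Mast cell and basophil genes were mostly dim, and 5 of the 7 were lowest in control 2 (25.9% of all genes). Cpa3, the mast cell carboxypeptidase, was 8.21, 6.16, 8.10 and 8.42, and Mcpt4, a mast cell chymase, 9.96, 8.45, 9.73 and 9.60, both lowest in control 2. Mcpt8, the basophil protease, was 6.52, 5.71, 7.65 and 8.81, also lowest there. Tpsb2, a mast cell tryptase, was lowest in control 1 on its brighter probe, at 9.55, 10.34, 10.31 and 9.74, and lowest in control 2 on the other. Of the 7 members 6 had a 2-fold range (21.8% of all genes), and mean levels ran from 3.17 to 9.99. As given above, that range was more frequent among dim genes.

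Clock genes distinguished control 4. The circadian clock is a loop in which the factors Clock, Arntl (also called Bmal1) and Npas2 switch on their own repressors, the Per, Cry and Nr1d genes, as well as output regulators such as Dbp, so that activators and repressors peak at different hours. Of the 15 members 13 had a 2-fold range (21.8% of all genes). Arntl was measured at 10.27, 10.15, 8.75 and 12.33, so control 4 stood 3.58 log2 above control 3. Clock and Npas2 had the same highest and lowest arrays, at 10.59, 10.79, 9.97 and 11.01, and at 4.63, 5.98, 4.22 and 6.94. The opposite order held for Dbp, a PAR bZIP output factor, at 15.13, 15.12, 15.92 and 12.17, with control 4 lower than the mean of the others by 3.22 log2. A second Dbp probe gave 14.96, 14.81, 15.77 and 12.22.

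Repressors and output regulators followed Dbp as a group. Of 12, 11 were lowest in control 4, as 22.5% of all genes were, and 10 were highest in control 3, as 23.6% were. Their mean was 11.29, 11.41, 11.98 and 10.31 in controls 1 to 4, so that control 4 lay below the mean of the others by a difference of 1.26 log2 (0.73 in the authors' table), and that of the 3 activators was 8.50, 8.97, 7.64 and 10.09. Per2, a period repressor, was 10.00, 10.13, 10.64 and 8.46, and Per3 was 8.61, 8.75, 9.68 and 7.56. Per1, also induced by glucocorticoids, was 14.65, 15.05, 14.97 and 13.72, and was highest in control 2. Nr1d1, the haem receptor Rev-erb alpha that represses Arntl, was 12.05, 11.13, 11.40 and 10.51, and it was highest in control 1 in place of control 3. Cry1, which peaks late in the cycle, was the member whose lowest array was not control 4, at 6.87, 7.19, 8.41 and 6.89. At least 2-fold below each other array in control 4 were 3 of the 15 clock genes, and 160 genes, or 0.768%, of all. The activators were also the 3 that had their lowest value in control 3, as 29.4% of all genes did.

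**Figure D5:**
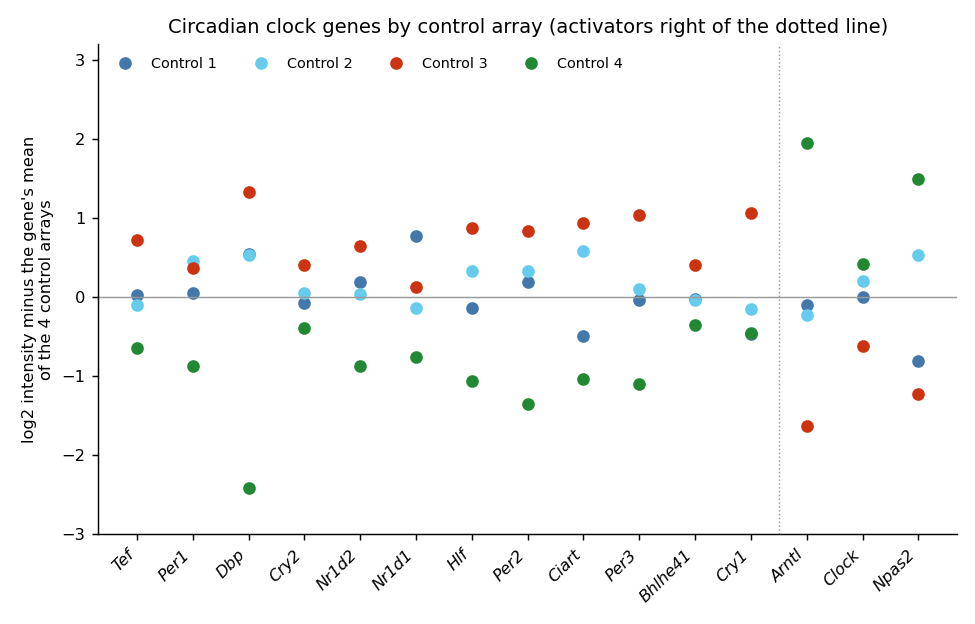
Log2 intensity of each clock gene minus its mean over the 4 control arrays (vertical axis), 1 colour per array, with the 3 activators to the right of the dotted line. Control 4 lies lowest for 11 of the 12 repressors and output regulators and highest for Arntl, Clock and Npas2, where control 3 lies lowest.

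Promoters of clock genes are shown for the E-box CACGTG, the letters that the Clock and Arntl pair binds. The motif reads the same on both strands. It was found in the 300-base promoters of 5 of 14 clock genes with an entry (35.7%), namely Per1, Tef, Ciart, Cry1 and Bhlhe41, beside 9.38% of all array genes with a promoter and 7.15% of all promoters. No clock promoter held TATAAA in the window described above. Ciart, a repressor of the Clock and Arntl pair, carries 3 matches, which begin 116, 58 and 44 bases before the start, and was measured at 8.84, 9.91, 10.26 and 8.29. Tef, a PAR bZIP factor related to Dbp, has a match at each of 2 annotated starts and was measured at 15.68, 15.56, 16.37 and 15.01. Each line holds 180 bases of GRCm38.p6 from RefSeq on the gene's strand, at chr3:95882229-95882408 on the minus strand for Ciart, chr11:69098769-69098948 on the plus strand for Per1, and chr15:81802493-81802672 on the plus strand and chr15:81811234-81811413 on the plus strand for the upstream and downstream starts of Tef.
Ciart: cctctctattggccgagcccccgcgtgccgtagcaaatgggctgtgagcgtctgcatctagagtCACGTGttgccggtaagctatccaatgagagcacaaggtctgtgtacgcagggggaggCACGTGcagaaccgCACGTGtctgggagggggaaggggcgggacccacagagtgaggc
Per1: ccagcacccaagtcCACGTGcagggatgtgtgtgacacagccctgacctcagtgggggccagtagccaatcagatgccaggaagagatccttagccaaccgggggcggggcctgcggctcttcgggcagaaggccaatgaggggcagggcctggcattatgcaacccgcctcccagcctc
Tef, upstream start: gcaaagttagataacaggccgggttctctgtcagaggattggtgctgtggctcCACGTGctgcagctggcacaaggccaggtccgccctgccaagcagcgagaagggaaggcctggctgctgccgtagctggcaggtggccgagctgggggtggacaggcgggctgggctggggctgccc
Tef, downstream start: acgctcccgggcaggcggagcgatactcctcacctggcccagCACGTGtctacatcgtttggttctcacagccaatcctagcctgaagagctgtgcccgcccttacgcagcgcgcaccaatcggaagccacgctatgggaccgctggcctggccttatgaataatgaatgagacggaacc

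Genes of the glucocorticoid response were lower in control 4 in part, with 4 of 9 members lowest there (22.5% of all genes). List means were 13.59, 13.61, 13.16 and 13.02. Zbtb16, a zinc finger factor induced by glucocorticoids, was measured at 13.53, 13.25, 12.51 and 11.57, and Fkbp5, the chaperone partner of the glucocorticoid receptor, at 12.03, 11.94, 11.54 and 10.95. Tsc22d3, the leucine zipper GILZ, was 15.46, 15.89, 15.62 and 15.09. Mt1, the brightest member, was instead lowest in control 1, at 15.45, 15.87, 15.97 and 15.51. Of the 9 members 5 had controls 1 and 2 both above controls 3 and 4 (18.8% of all genes), and 4 had a 2-fold range (21.8% of all genes).

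Immediate early genes, which cells switch on within minutes of a stimulus, were higher in control 4 for 11 of 20 members, beside 23.4% of all genes. Fos was measured at 10.53, 10.56, 11.49 and 12.22, and Egr1 at 11.84, 11.88, 12.82 and 13.25, both growth-factor-induced transcription factors. Ccn1, a matricellular protein induced by stretch, was 12.56, 12.66, 13.02 and 14.08, and Nr4a1, an orphan nuclear receptor, 14.36, 14.96, 15.26 and 15.65. In 8 members both controls 3 and 4 lay above both controls 1 and 2, an order that 15.1% of all genes had. Jun, by contrast, was highest in control 1, at 15.65, 15.47, 15.09 and 15.36. The list's mean differed by 0.54 log2 between its highest and lowest array.

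Mesothelium, the cell layer that covers the lung surface and lines the chest, was also highest in control 4. List means were 10.46, 10.40, 11.38 and 11.87, and controls 3 and 4 exceeded controls 1 and 2 by 1.20 log2 (0.94 to 1.45). Msln, mesothelin, was measured at 13.20, 13.42, 13.90 and 14.59, Upk3b, a uroplakin of mesothelial cells, at 9.04, 8.53, 10.70 and 11.29, and Wt1, their transcription factor, at 7.90, 8.09, 9.36 and 10.29. Krt19, a keratin also made by airway epithelium, differed less, at 14.61, 14.46, 14.58 and 14.90. None of the 6 was at least 2-fold above each other array in control 4, as 227 genes (1.09%) were overall.

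Most heart muscle genes were ordered like the ciliated genes, and the list's median stood at the 73.4 ± 3.1 percentile. All 20 were well above background on all 4 (76.9% of all genes), and 15 had controls 2 and 4 both above controls 1 and 3 (17.1% of all genes). Myh6, the atrial myosin heavy chain, ranked 213 at 16.13, 17.00, 15.83 and 16.94, and its second probe had the same 2 arrays highest, at 8.71, 9.79, 8.73 and 9.55. Myl4, the atrial light chain, was 15.59, 16.36, 15.24 and 16.42, and Actc1, cardiac actin, 15.69, 16.16, 15.61 and 16.18. Nppa, the atrial natriuretic peptide, was 13.09, 12.66, 12.74 and 14.80, with control 4 at 1.97 log2 above the mean of the others. Myl3, a light chain shared by ventricle and slow skeletal muscle, was highest in control 3 at 14.96, beside 11.11 to 12.64. The difference of controls 2 and 4 from controls 1 and 3 was 0.61 log2 for the list.

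Genes of the type 2 response of airways, which mucous cells and macrophages switch on under interleukin 4 and interleukin 13, were higher in controls 1 and 2. This list was added after the values were seen. Of the 20 found, 14 had a 2-fold range (21.8% of all genes) and 15 had controls 1 and 2 both above controls 3 and 4 (18.8% of all genes). Means were 10.94, 10.81, 9.80 and 9.72. In 5 members both controls 1 and 2 were at least 2-fold above both others, as 109 genes (0.523%) were overall. Clca1, a secreted protein of mucous cells, was measured at 14.66, 14.18, 9.91 and 8.49, a difference of 5.22 log2 (4.17 to 5.95). Retnla, the resistin-like lectin of alternatively activated macrophages and airway epithelium, was 17.29, 17.41, 15.26 and 14.71. Ccl8, a chemokine for eosinophils and T helper cells, was 13.73, 13.01, 10.96 and 11.90. Slc26a4, the anion exchanger pendrin, was 12.04, 12.07, 9.93 and 10.25, and Muc5b, the main mucin of mouse airways, 15.05, 15.95, 14.61 and 14.36.

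Il13, the gene of interleukin 13, was well above background on no array. Chil3 and Chil4, chitinase-like proteins, had the same order of pairs, at 18.09, 17.51, 16.41 and 16.34, and at 11.41, 10.66, 10.10 and 9.22. TATAAA was present in 6 of the 13 genes of this list with a promoter entry (46.2%), Retnla among them. Mast cell genes did not share the order of arrays, as given above.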

How the data were processed

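Lung RNA from 4 unirradiated pools was measured on Agilent mouse 44K arrays with 1 colour. Per the labels and the study's methods, the authors pooled RNA, amplified and labelled it, and extracted spot values with Feature Extraction (version not given in the sources used here). The deposited values used here are intensity on a linear scale, background-corrected by the scanner software (gProcessedSignal). The authors' own value table, also intensity, was filtered at 1.4 times the local background and quantile normalized, and served as an alternative.

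Of 44397 spots, 1377 control spots and those with an outlier flag were left out, and no spot was saturated. Values were log2 transformed, quantile normalized over the 4 arrays with Python 3.11.15, NumPy 2.4.6 and pandas 2.3.3, averaged over spots of a probe, and named through RefSeq accessions. Control 4 carries another accession for 9757 spots, so accessions of all files were joined and 109 probes with conflicting symbols left unnamed. The brightest of a gene's probes was kept, which gave 20832 genes. Normexp with an offset of 50 (limma 3.58.1, R 4.3.3) was an alternative. With 1 group there is no comparison between groups and no test. Named genes were the 20 brightest, the 20 largest ranges, the 10 smallest SDs and 10 largest ranges among the 2000 brightest, and the brightest and most variable members of each list. Others were named after their values were seen. Differences written with "at least" are bounds that put the dimmest signal well above background in place of a lower value. Other levels are printed as measured, also where a probe was not well above background, and differences of list means include such probes. Members and lists were chosen with earlier results of these data known, and 3 lists (cornified envelope, type 2 airway response, bone and growth plate), as well as the differences between arrays, were picked with the levels in view. The scripts were tested on simulated data. The number of arrays limits the precision.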

Additional observations from a re-analysis of the deposited data

Results flagged for a closer look

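In 30 of 225 sets of 4 values that were looked at (53 lists and 172 genes), the highest or lowest array lay so far from the nearest of the others that the gap took up most of the whole range (Dixon's 95% criterion for 4 values). Chance alone does this in about 1 in 20 sets, and 6.97% of all genes had such a gap. Many of the 172 genes were chosen for their large range, so the share found among them cannot be read against either figure. The arrays that stood apart were as follows.

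Control 3 was the array apart in 23 of them. For the skeletal muscle, squamous epithelium and cornified envelope lists its means were 10.80, 10.01 and 9.49. Among muscle genes the values of control 3 were 13.55 for Myh1, 12.30 for Myh4, 15.59 for Tnnc2 and 14.62 for Acta1. Tnnc2 encodes the calcium-binding troponin of fast fibres. Among cornified envelope and keratinocyte genes they were 15.89 for Lor, 11.25 for Sprr3, 14.10 for Lce3a, 12.66 for Lce1d, 13.83 for Crct1, 14.11 for Lce3c, 12.44 for Lce3f, 12.26 for Lce3e, 12.20 for Lce1a1, 11.17 for Lce1f and 11.13 for Kprp. The other high values of control 3 were 11.92 for Serpinb3a, a protease inhibitor of squamous cells, 11.28 for Defb4, a beta-defensin, 12.23 for Calm4, a calmodulin-like protein of skin, and 11.56 for Gm94. Ubd was the gene for which control 3 was the low array, at 5.64.

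The other 3 arrays accounted for the rest. In control 1 the mean of the antigen presentation list was 15.03. In control 2 the low values were 17.29 for Hba-a1, 6.16 for Cpa3 and 18.87 for Kctd14, the last beside 18.92 on each other array. In control 4 the liver list's mean was the highest at 7.02, while Eif2s3y, a translation factor gene of the Y chromosome, at 12.18 and Rn4.5s, a small non-coding RNA, at 18.85 were the low values. Causes were not tested.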

How the results depend on the processing

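No paired analysis was possible because there is 1 group of arrays and no test. The 22 differences between arrays were recomputed under 6 other settings and without arrays in turn, 202 values in all. Each of the 202 kept its direction. No difference was recomputed where its only high or only low array was left out, and the differences were picked with the levels in view. A kept direction is therefore no test of them. Of the 202, 34 moved by more than the spread between arrays, 8 of these of Arntl. That one is a difference of single arrays with no spread of its own. The lowest values were 2.20 in place of 3.85 for skeletal muscle, 2.70 in place of 4.64 for cornified envelope, 0.74 in place of 1.78 for cartilage and 0.73 in place of 1.26 for the clock repressors and outputs. The counts depended more on the settings. As reported, the distance was 0.226, with 4547 genes past 2-fold, 1137 past 4-fold and a median correlation over array pairs of 0.984. Scaling to the 75th percentile gave more, 5913 genes past 2-fold and 1338 past 4-fold. With normexp the array distance was 0.156, 1344 genes had a 2-fold and 177 a 4-fold range, and the median correlation was 0.989. With a filter at 1.4 times the local background 702 genes had a 4-fold range. Keeping only probes well above background gave a distance of 0.195, 1925 genes past 2-fold and 234 past 4-fold. The authors' table gave a distance of 0.275, 4542 genes past 2-fold (25.2% of the 18062 genes it holds) and 414 past 4-fold, and the mean of all probes kept 8 of the 20 brightest genes. Leaving out 1 array at a time gave 0.219 to 0.254 for the distance and a median correlation of 0.980 to 0.989. It gave 2811 to 3615 genes past 2-fold and 570 to 919 past 4-fold. Of the 50 lists fixed at the start, 5 to 7 then had a 2-fold range of means (9 with all arrays). The 3 added lists were not counted. The lower counts and the higher correlation came without control 3. An offset or a filter on dim probes shrinks or removes the differences of dim probes by construction.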

Other observations

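A few genes not described above stood out on 1 array. Gad2, an enzyme of inhibitory neurons and pancreatic islets, was measured at 8.39, 2.52, 3.55 and 3.99 in controls 1 to 4. Ttr, the thyroid hormone carrier made by liver and choroid plexus, was well above background in control 4 alone, at 2.63, 2.43, 2.10 and 6.73. Mup19, a major urinary protein, was lowest in control 3, at 9.52, 8.37, 5.73 and 8.77. In the liver list as a whole the array means lay between 6.81 and 7.02. Cell division genes were lowest in control 4, with list means of 9.05, 9.15, 8.86 and 8.59, and Mki67, a marker of dividing cells, at 11.68, 11.91, 11.45 and 11.31. Olfr544 was the brightest olfactory receptor gene at 12.55, 12.41, 13.10 and 12.16.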
